A study of Gallus gallus with 12 samples.

Results

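The genes described here are the HOX genes and the patterning transcription factors of the MEIS, PBX, TBX, DLX, PITX, IRX, NKX, LHX and ALX families and the family of SIX5, in the chorioallantoic membrane (CAM) of the chick. They were chosen by symbol, and a probe set was kept where all 3 arrays of at least 1 stage had a signal over 35. Of 128 probe sets for 75 such genes, 36 probe sets for 27 genes met this limit, out of 17726 tested probe sets. The CAM is the vascular membrane formed when the allantois, a sac that grows out of the hindgut, fuses with the chorion. CAMs were taken from untreated chick embryos at embryonic days 5, 7, 10 and 14 (E5, E7, E10 and E14), from 3 embryos per stage, and the RNA of each whole membrane was read on an array of its own. At E5 the tissue was still the allantoic vesicle. All values are signals that the authors had scaled to the same trimmed mean on every array, so a level has no absolute unit and is compared only within a probe set. A difference was called where the adjusted p was under 0.05 and the change over 2-fold, in a model fitted to all 12 arrays and all tested probe sets.

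HOX genes lie in 4 clusters, HOXA to HOXD, and are numbered by paralog group along each cluster. Genes of low number are expressed anteriorly and early in the embryo, and genes of high number posteriorly and later. MEIS and PBX proteins, of the TALE class of homeodomain proteins, bind DNA together with HOX proteins. Retinoic acid induces HOX genes of low number in particular, and Polycomb and trithorax proteins keep them silent or active. The allantois arises at the posterior end of the embryo, and in the mouse Tbx4 and Hoxa13 are known to be needed for its vessels. The HOXA genes of the chicken lie side by side in numerical order in the RefSeq annotation. No sequences are given for these genes.

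The array of E7 replicate 3 stood apart. Its median signal was 48.6, against 24.4 to 33.6 on the other 11 arrays, and its mean correlation with the other E7 arrays was 0.830. The summed signal of 9 skeletal and heart muscle markers was 499 on that array and 81.9 to 179.9 on the others. None of these markers passed the limit, and the part of the higher median of this array in the sum was not tested. HINTW, which lies on the W chromosome that only females carry, was high on 1 E5 array, 1 E7 array, all 3 E10 arrays and 2 E14 arrays, so that the share of female embryos differed between stages. On E7 replicate 3 its signal was 109.6, between the 2.59 to 11.7 of the low arrays and the 3680 to 7633 of the high ones. The 3′ to 5′ signal ratio of actin, a sign of RNA degradation, was 2.21 to 3.43 on the E14 arrays and 2.76 on E7 replicate 3, and 1.19 to 1.66 on the others. The same ratio of GAPDH was 1.19 to 1.3 on the E14 arrays. On E7 replicate 3 it was 1.01, within the 0.921 to 1.1 of the others. The part of these differences in the results below was not tested. Because whole membranes were read, fewer cells of a type and less RNA per cell cannot be told apart.

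Of the 36 probe sets, 17 for 14 genes were called in at least 1 of 5 comparisons, and 19 were called in none. The share of all tested probe sets called in at least 1 comparison was not counted, so these counts cannot be set against a background. In E7 against E5, 1 was called higher and 0 lower, where 1.02% of all tested probe sets were higher and 0.243% lower. In E10 against E7, 2 were higher and 1 lower, where the shares of all tested probe sets were 2.75% and 0.671%. In E14 against E10, 0 were called in limma, with 2 at an unadjusted p under 0.05, where 1.22% of all tested probe sets were higher and 1.48% lower. Over the longer spans more were called. In E10 against E5, 8 were higher and 6 lower, where 9.36% and 4.78% of all tested probe sets were higher and lower. In E14 against E5, 8 were higher and 7 lower, where the shares were 14.8% and 13.6%. An F test over all 4 stages passed 14 of the 36 (38.9%), where 32.9% of all tested probe sets passed. The highest stage mean lay at E5 for 13 of the 36, at E7 for 3, at E10 for 6 and at E14 for 14. Over all tested probe sets the shares were 32.9%, 14%, 20.4% and 32.8%. Of the 36, 18 exceeded the limit at all 4 stages and 8 at 1 stage only, where 63.3% and 13.5% of all tested probe sets did. Of these 8, 6 were called (HOXA2, HOXC9, HOXD11, HOXD13 and both TBX20 probe sets), and such a probe set is in the analysis because it was high at that stage. How many of all tested probe sets that passed at 1 stage only were called was not counted.

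HOXA2, HOXA3, HOXA4, HOXA7 and HOXB7 were called higher at E14 than at E5, and no HOX gene of paralog groups 1 to 8 was called lower in any comparison. Of 3 probe sets of paralog groups 1 to 3, 2 were called higher in E14 against E5, with a median log2 fold change of 2.02 over the 3. Of 6 probe sets of groups 4 to 8, 4 were called higher, with a median of 1.41. Of 11 probe sets of groups 9 to 13, 0 were called higher and 4 lower, with a median of -0.19. Of these 11, HOXC9, HOXD11 and HOXD13 passed the limit at E5 alone, and of the other 8 only the 2 HOXA11 probe sets were called lower. The dimmer HOXA11 probe set passed at E5 and E7 alone. In groups 1 to 3, HOXA2 passed at E14 alone. Such members could enter only by being high at those stages, so the counts give no support to a pattern along the clusters. The median over all tested probe sets was 0.03. In E10 against E5 the higher calls in these groups were 2, 3 and 0, and the lower calls were 0, 0 and 5, with medians of 1.96, 0.95 and -0.47. The signs of these medians were the same after quantile normalization and after setting the array medians equal.

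HOXA3, which patterns the pharyngeal arches and is known to promote migration of human endothelial cells, rose by E10. Its signals were 92.4, 61.3 and 88.8 at E5, 121, 119 and 127 at E7, 285, 396 and 265 at E10 and 412, 246 and 329.6 at E14. The E10 arrays all lay above the E7 arrays, and the E7 arrays all above the E5 arrays, whereas E14 and E10 overlapped. Its log2 fold change was 1.35 ± 0.25 in E10 against E7 (SE, adjusted p = 0.00865) and 2.02 ± 0.25 in E14 against E5 (adjusted p = 3.94e-05). These calls held when any single array was left out.

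HOXA2, which sets segment identity in the hindbrain and the second pharyngeal arch, was near the bottom of the signal range at E5. Its signals were 0.838, 0.753 and 10.1 at E5, 14.02, 13.8 and 9.57 at E7, 31.2, 32.8 and 30.7 at E10 and 55.2, 38.4 and 38.03 at E14. It met the limit of 35 at E14 alone. Between E14 and E5 the log2 fold change was 4.54 ± 0.96 (adjusted p = 0.002), but its size rested on E5 signals under 11. With signals under 20 set to 20 it was 1.11 (adjusted p = 0.00444), and in E10 against E5 it was 0.66 and no longer called (adjusted p = 0.0972). That floor sets all E5 arrays of HOXA2 to the same value, so the call kept under it adds no support. Another HOXA2 probe set, under the limit at every stage, had means of 7.3 at E5, 6.3 at E10 and 22.3 at E14.

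HOXA4 and HOXA7, which pattern the neck and trunk, were called higher at both E10 and E14. HOXA4 had signals of 69.3, 30.4 and 47.1 at E5, 54.8, 48.6 and 50.3 at E7, 87.5, 99.4 and 102 at E10 and 193, 121 and 113 at E14, so that all E10 and E14 arrays lay above all E5 and E7 arrays. In E14 against E5 its log2 fold change was 1.58 ± 0.33 (adjusted p = 0.00178). The brighter HOXA7 probe set had signals of 109, 97.96 and 186 at E5, 169.9, 133 and 192 at E7, 357, 306 and 261 at E10 and 686, 233 and 365 at E14. The 3 E14 arrays differed widely but all exceeded E5, and the log2 fold change was 1.63 ± 0.34 (adjusted p = 0.002). The other HOXA7 probe set over the limit gave 1.53 ± 0.34 (adjusted p = 0.00294). Further HOXA7 probe sets lay under the limit and were not tested. Their means at E5, E10 and E14 were 38.7, 27.7 and 44.8 on 1 and 21.4, 23.4 and 27.5 on another. The E10 calls were less steady than the E14 calls. In E10 against E5, HOXA4 (log2 fold change 1.05, adjusted p = 0.0356) was lost without E5 replicates 2 or 3 or any E10 array, with adjusted p up to 0.151. The brighter HOXA7 probe set (1.29, adjusted p = 0.0175) was lost without E5 replicates 1 or 2 or E10 replicate 1, with adjusted p up to 0.078, and the other (1.17, adjusted p = 0.0277) was lost when any E5 or E10 array was left out, with adjusted p up to 0.11. After quantile normalization HOXA4 and the dimmer HOXA7 probe set were at 0.91 and 0.97 in this comparison and not called (adjusted p = 0.122 and 0.103).

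HOXB7, also a trunk HOX gene, had signals of 87.6, 71.8 and 70.04 at E5, 91.6, 92.1 and 248 at E7, 141, 114 and 155 at E10 and 259, 147 and 171 at E14. The E14 arrays exceeded the E5 arrays, and at E7 replicate 3 was the high one. It was called in E14 against E5 only, with a log2 fold change of 1.30 ± 0.35 (adjusted p = 0.00995), and just missed the threshold without E14 replicate 1 (adjusted p = 0.0503). HOXA6, with signals between 137 and 285.5 on the 12 arrays, had a log2 fold change of 0.30 ± 0.25 in E14 against E5 (adjusted p = 0.354). HOXB3 and HOXB5 had log2 fold changes of 0.16 ± 0.41 and -0.04 ± 0.42 in the same comparison (adjusted p = 0.785 and 0.944), and the E14 and E5 arrays overlapped in both.

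**Figure D1:**
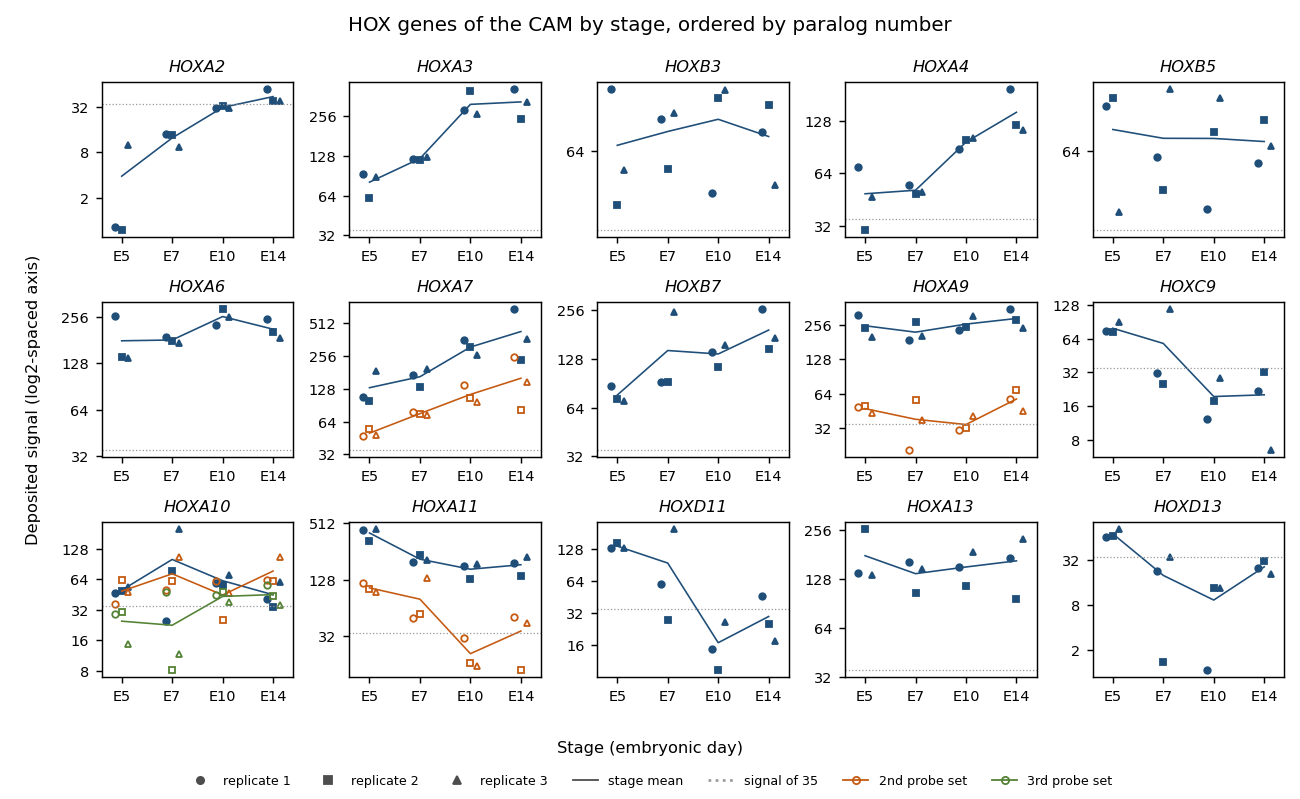
Signals of the 15 HOX genes on the 12 arrays (y axis, deposited signal on a log2-spaced axis that differs between panels; x axis, stage), ordered by paralog number, with 1 point per CAM, lines through the stage means and open symbols for further probe sets of a gene. The E14 points of HOXA2, HOXA3, HOXA4, HOXA7 and HOXB7 all lie above the E5 points, and those of HOXA11, HOXC9, HOXD11 and HOXD13 all below.

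Of the posterior HOX genes, HOXA11, HOXD11, HOXC9 and HOXD13 were called lower at E10 than at E5. HOXA11 and HOXD11 together pattern the forearm and the kidney, HOXC9 the thoracic trunk, and HOXD13 the digits and the hindgut outlet. The brighter HOXA11 probe set had signals of 438, 332 and 443 at E5, 197, 234 and 206 at E7, 179, 132 and 188 at E10 and 191, 142 and 223 at E14. The E5 arrays lay above every array of the later stages. Its log2 fold change was -0.92 ± 0.23 in E7 against E5, short of the threshold (adjusted p = 0.0661), -1.29 ± 0.23 in E10 against E5 (adjusted p = 0.00167) and -1.14 ± 0.23 in E14 against E5 (adjusted p = 0.00149). Without E14 replicate 2 the change at E14 was -0.96, under the fold threshold. The second HOXA11 probe set had signals of 118, 102 and 95.9 at E5 and 50.6, 55.9 and 132 at E7, then 30.9, 16.4 and 15.4 at E10 and 51.4, 13.9 and 43.98 at E14. It passed the limit at E5 and E7 alone, so it could enter only by being high there. Its log2 fold change was -2.40 ± 0.52 in E10 against E5 (adjusted p = 0.00557) and -1.73 ± 0.52 in E14 against E5 (adjusted p = 0.017), the second lost without E5 replicate 1 or E14 replicate 2 (adjusted p up to 0.0714).

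HOXD11 and HOXC9 passed the limit at E5 alone, so they could enter only by being high there. HOXD11 was called lower over both long spans. Its signals were 132, 147 and 130 at E5, 60.2, 27.5 and 196 at E7, 14.9, 9.36 and 26.6 at E10 and 46.6, 25.4 and 17.6 at E14. All E10 and E14 arrays lay below all E5 arrays, while E7 ran from below to above E5. In E10 against E7 the log2 fold change of -2.15 ± 0.61 was not called (adjusted p = 0.0636), and without E7 replicate 2 it was -2.81 and called (adjusted p = 0.0233). That fit left E7 at 60.2 and 196, the second on E7 replicate 3, the array that stood apart. Without E7 replicate 3 HOXD11 was not called in E10 against E7. HOXD11 had a log2 fold change of -3.13 ± 0.61 in E10 against E5 (adjusted p = 0.00298) and -2.31 ± 0.61 in E14 against E5 (adjusted p = 0.00861), and both calls held when any single array was left out. HOXC9 had signals of 75.4, 73.1 and 89.5 at E5, 31.3, 25.4 and 118 at E7, 12.3, 17.8 and 28.2 at E10 and 21.6, 32.4 and 6.46 at E14. It fell by 2.10 on the log2 scale in E10 against E5 (adjusted p = 0.0369) and by 2.26 in E14 against E5 (adjusted p = 0.0149). The HOXC9 call at E10 failed when any E5 or E10 array was left out (adjusted p up to 0.123), and that at E14 without E5 replicate 3 or E14 replicate 3 (adjusted p up to 0.0676).

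HOXD13 had signals of 65.3, 67 and 82.2 at E5, 23.03, 1.40 and 35.1 at E7, 1.07, 13.5 and 13.3 at E10 and 25.1, 31.4 and 20.96 at E14. It too passed the limit at E5 alone. Every later array lay below the E5 arrays, but with a wide spread on the log2 scale, since 2 arrays were near a signal of 1. It was called in E10 against E5, at -3.62 ± 1.14 (adjusted p = 0.0368), but not when E10 replicate 1 or any E5 array was left out (adjusted p up to 0.148). With signals under 20 set to 20 it was -1.83 (adjusted p = 0.000726). In E14 against E5 it was -1.48 ± 1.14 and not called (adjusted p = 0.319). With that floor, the same log2 fold change of -1.48 at E14 was called (adjusted p = 0.00131). The floor sets all E10 arrays of HOXD13 to the same value and so shrinks the spread, and the p-values under it add no support.

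**Figure D2:**
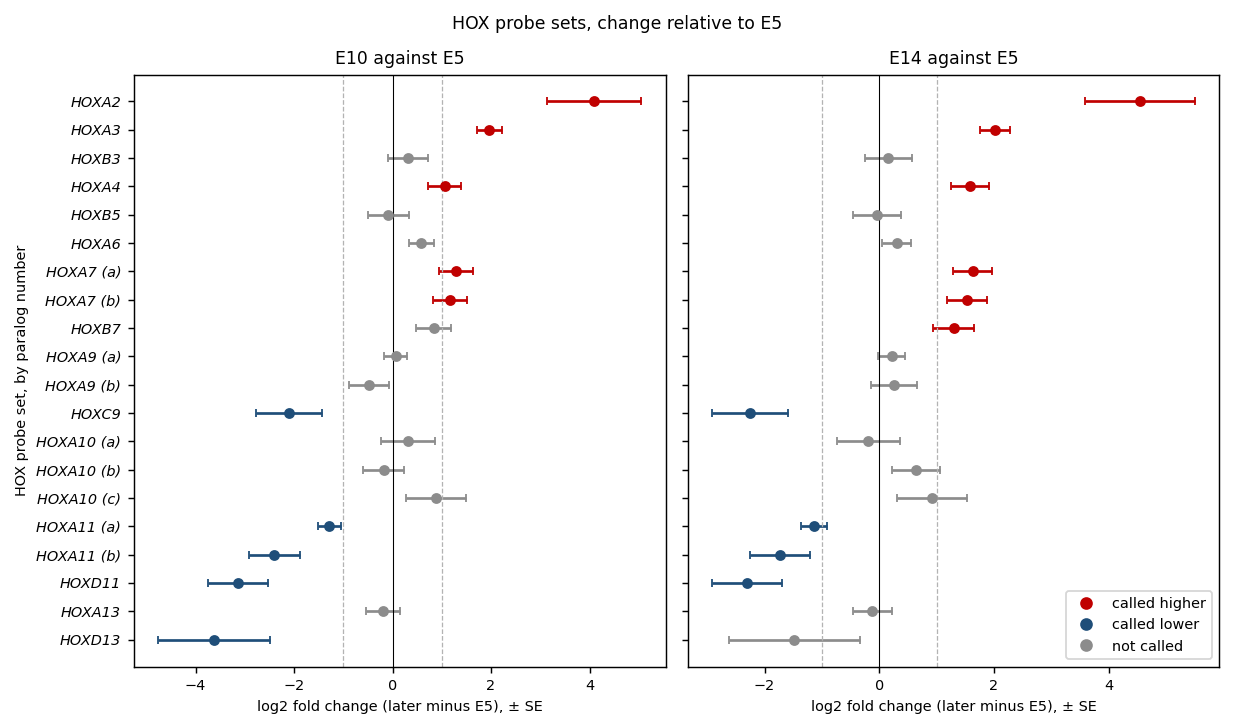
Log2 fold change with its SE for the 20 HOX probe sets in E10 against E5 (left) and E14 against E5 (right), from low paralog numbers at the top to high at the bottom, with red for called higher, blue for called lower and grey for not called. Dashed lines mark a 2-fold change, and (a), (b) and (c) mark probe sets of 1 gene from bright to dim. The higher calls lie in HOXA2, HOXA3, HOXA4, HOXA7 and HOXB7, and the lower calls in HOXC9, HOXA11, HOXD11 and HOXD13. Of these, HOXA2 passed the limit at E14 alone, HOXC9, HOXD11 and HOXD13 at E5 alone, and the dimmer HOXA11 probe set at E5 and E7 alone.

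Other posterior HOX genes were not called. HOXA13, the HOXA gene of highest number, had signals of 139, 257 and 135 at E5, 161, 105 and 146 at E7, 151, 116 and 185 at E10 and 172, 96.3 and 225 at E14. The stages overlapped, and the log2 fold change in E14 against E5 was -0.12 ± 0.34 (adjusted p = 0.799). HOXA9, known in blood stem cells, had signals of 314, 239 and 201 at E5, 189, 271 and 203 at E7, 230.1, 245 and 304 at E10 and 350.4, 280 and 242 at E14 on its brighter probe set. Its log2 fold change in E14 against E5 was 0.22 ± 0.24 (adjusted p = 0.484), and 0.26 ± 0.41 on the other (adjusted p = 0.637). The 3 probe sets of HOXA10, known for its part in the uterus and the limb, had log2 fold changes of -0.19, 0.64 and 0.92 in E14 against E5, with adjusted p of 0.809, 0.235 and 0.245. Within the HOXA cluster, HOXA2, HOXA3, HOXA4 and HOXA7 were called higher and HOXA11 lower at E14 than at E5. HOXA6, which lies between HOXA4 and HOXA7, was not called, nor were HOXA9, HOXA10 and HOXA13. HOXA2 passed the limit at E14 alone and could enter only by being high there.

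On E7 replicate 3 some posterior HOX genes were high and others were not. HOXD11 was at 196 there and at 60.2 and 27.5 on the other E7 arrays, and HOXC9 at 117.5, against 31.3 and 25.4. Of the 11 probe sets of groups 9 to 13, 6 were highest within E7 on that array, as were 41.7% of the 36 probe sets and 34.5% of all tested. The brighter HOXA11 probe set, HOXA13 and both HOXA9 probe sets were among those that were not, and 1 HOXA10 probe set was at 11.6 there and at 47.7 on E7 replicate 1. DLX6 and NKX3-2, both below the limit at every stage, reached 236 and 219.5 on that array, and at most 43.7 and 39.8 elsewhere on the same probe sets. They were not alone. SIX3, TBX18, LHX6 and HOXB13, also below the limit, reached 199.8, 149.5, 143.5 and 142.3 there, whereas 1 HOXD10 probe set had its lowest signal there, at 12.3. The part of the higher median of that array in these signals was not tested. In E10 against E7 the median log2 fold change of groups 9 to 13 was -0.37, and 0.005 without E7 replicate 3. The summed signal of 8 cartilage markers was 2183, 1172 and 1996 on the 3 E7 arrays and 248 to 1244 on the other 9. The part of such markers in the HOX signals was not tested. Without E7 replicate 3, 15 probe sets were called in E10 against E5 and 15 in E14 against E5, and 0 in E7 against E5.

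**Figure D3:**
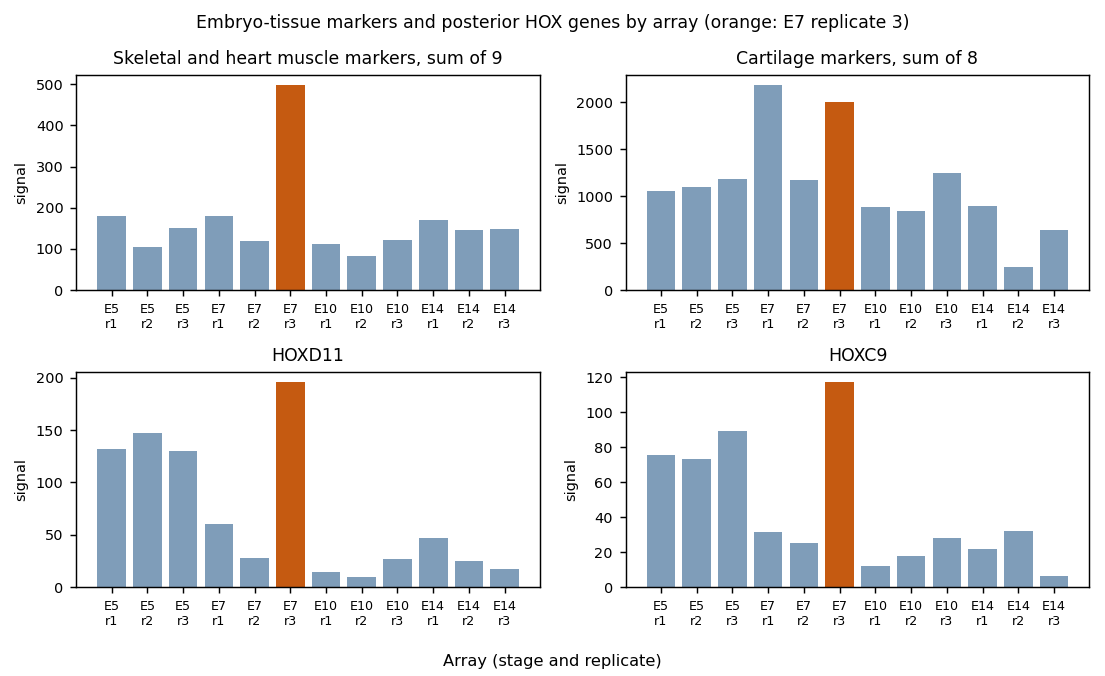
Summed signals of skeletal and heart muscle markers and of cartilage markers (top) and signals of HOXD11 and HOXC9 (bottom) on each array (x axis, stage and replicate; y axis, signal from 0), with E7 replicate 3 in orange. The muscle sum on E7 replicate 3 is 499, above the 179.9 of the next array, and HOXD11 (196) and HOXC9 (117.5) are highest on that array. The median signal of E7 replicate 3 was also the highest of all arrays.

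None of 6 probe sets of MEIS1, MEIS2, PBX3 and PBX4 was called in any comparison. These encode the HOX cofactors. Calls were most frequent in E14 against E5, at 14.8% of all tested probe sets higher and 13.6% lower. The absence of calls among 6 probe sets thus does not show stable levels. PBX3 had signals of 469, 364 and 352 at E5, 309, 309.9 and 230.1 at E7, 349, 382 and 360.4 at E10 and 260.1, 311 and 224 at E14. All E14 arrays lay below all E5 arrays, with a log2 fold change of -0.58 ± 0.21 that passed on p (adjusted p = 0.0383) but was under 2-fold. MEIS1 had signals of 58.4, 95.9 and 54.7 at E5, 84.3, 34.5 and 32.2 at E7, 65.1, 70.5 and 108 at E10 and 85.6, 111 and 77.2 at E14. Its log2 fold change in E14 against E5 was 0.42 ± 0.39 (adjusted p = 0.418). Both MEIS2 probe sets were highest at E14, with log2 fold changes of 0.68 and 0.61 in E14 against E10 (adjusted p = 0.263 and 0.381). The PBX4 probe sets had log2 fold changes of -0.40 and 0.16 in E14 against E5 (adjusted p = 0.47 and 0.749), and in both the lowest signal was on E7 replicate 3. Of 4 tested genes of the other TALE factors (PKNOX1, PKNOX2, TGIF1 and TGIF2), TGIF2, a repressor in TGF-beta signalling, was called higher in E10 against E7, with a log2 fold change of 1.14 ± 0.28 (adjusted p = 0.0326), lost without E7 replicates 1 or 3 or any E10 array (adjusted p up to 0.143). In limma 0 of the 4 were called in the other comparisons. The share called higher in E10 against E7 was 2.75% over all tested probe sets.

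Among the T-box factors, TBX20, a regulator of the heart, was called lower at E14. The dimmer of its probe sets had signals of 117, 63.9 and 105 at E5, 34.2, 40.1 and 4.91 at E7, 16.7, 22.9 and 24.1 at E10 and 17.9, 8.49 and 3.17 at E14. The E5 arrays stood above all others. For E14 against E5 the log2 fold change was -3.55 ± 0.81 (adjusted p = 0.0031), and on the brighter probe set it was -2.27 ± 0.60 (adjusted p = 0.00784). Both calls held without any single array. Both probe sets passed the limit at E5 alone, and with signals under 20 set to 20 the changes were -2.20 and -1.67 and still called (adjusted p = 0.000122 and 0.0015). In E10 against E5 the changes were -2.13 and -1.54 and were not called (adjusted p = 0.0758 and 0.0836), whereas with signals under 20 set to 20 both were (adjusted p = 0.000637 and 0.0164). The dimmer was also called in that comparison without E7 replicate 3 (adjusted p = 0.017) and the brighter without E14 replicate 3 (adjusted p = 0.0407). Setting signals under 20 to 20 makes the low arrays of TBX20 nearly equal and shrinks the spread. The TBX20 p-values under that floor therefore add no support. TBX4, which specifies the hindlimb, had signals of 70.1, 109.6 and 96.6 at E5, 100.1, 139.6 and 84.5 at E7, 125, 88.7 and 159 at E10 and 51.02, 77.6 and 63.8 at E14. The E14 arrays lay below the E10 arrays, but the log2 fold change of -0.93 ± 0.31 was not called (adjusted p = 0.114). TBX2 and TBX5, which pattern the heart and forelimb, were near the limit and had log2 fold changes of 1.02 ± 0.67 and 0.60 ± 0.46 in E14 against E5 (adjusted p = 0.244 and 0.321).

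SIX5, a homeobox gene that in humans neighbours the myotonic dystrophy kinase gene, was called higher from E10 on. Its signals were 177, 189 and 205 at E5, 165, 159.8 and 133 at E7, 458, 319 and 524 at E10 and 418, 573 and 491 at E14. The E10 and E14 arrays all lay above the E5 and E7 arrays. SIX5 had a log2 fold change of 1.48 ± 0.22 in E10 against E7 (adjusted p = 0.00222) and 1.37 ± 0.22 in E14 against E5 (adjusted p = 0.000271), and both calls held without any single array. Further SIX5 probe sets lay under the limit and were not tested. Their means at E5, E10 and E14 were 22.7, 14.3 and 17.1 on 1 and 7.0, 12.6 and 12.7 on another.

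DLX5, which acts in the skull, jaws and bone, peaked at E7 and was the only one of the 36 probe sets called there. Its signals were 136, 294 and 309 at E5, 459.6, 918 and 807 at E7, 507, 535 and 377 at E10 and 251, 437 and 349 at E14. All E7 arrays exceeded all E5 arrays, with a log2 fold change of 1.59 ± 0.33 (adjusted p = 0.0291). The call was lost without E5 replicate 1, E7 replicate 2 or E7 replicate 3 (adjusted p = 0.0869 to 0.116). In E10 against E5 the change was 1.02 ± 0.33 (adjusted p = 0.0441), lost without E5 replicates 1 or 2, any E10 array or E14 replicate 3 (adjusted p up to 0.206).

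The 2 probe sets of PITX1, which specifies the hindlimb upstream of TBX4, differed. The dimmer had signals of 497, 479.9 and 528 at E5, 449, 267 and 459.9 at E7, 189.8, 209 and 147 at E10 and 233, 107 and 172 at E14. All E10 and E14 arrays were below all E5 and E7 arrays. It was called lower in E10 against E7 (log2 fold change -1.08 ± 0.29, adjusted p = 0.0463) and in E14 against E5 (-1.63 ± 0.29, adjusted p = 0.000514). The call in E10 against E7 was lost without any E5 or E10 array, E7 replicates 1 or 3 or E14 replicate 3 (adjusted p up to 0.18). The brighter had signals of 672, 468 and 611 at E5, 482, 490 and 419 at E7, 498, 453 and 378 at E10 and 544, 230.1 and 570.3 at E14. It was called in no comparison, with a log2 fold change of -0.48 ± 0.29 in E14 against E5 (adjusted p = 0.209). The probe sets of PITX1 thus gave no common call.

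NKX6-1, a regulator of pancreatic beta cells and of the ventral spinal cord, had signals of 21.5, 8.83 and 41.7 at E5, 22.9, 85.5 and 23.8 at E7, 61.2, 72.6 and 68.7 at E10 and 61.6, 52.3 and 87.95 at E14. The E10 and E14 arrays lay above the E5 arrays, with log2 fold changes of 1.76 ± 0.58 and 1.72 ± 0.58 (adjusted p = 0.045 and 0.0299). NKX6-1 passed the limit at E10 and E14 alone, so it could enter only by being high there. The call at E10 was lost without 7 of the 12 arrays (E5 replicates 1 and 2, every E10 array and E14 replicates 1 and 3, adjusted p up to 0.185). The call at E14 was lost without E5 replicates 1 or 2 or E14 replicates 1 or 3 (adjusted p up to 0.136), and after quantile normalization (1.53, adjusted p = 0.0996).

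**Figure D4:**
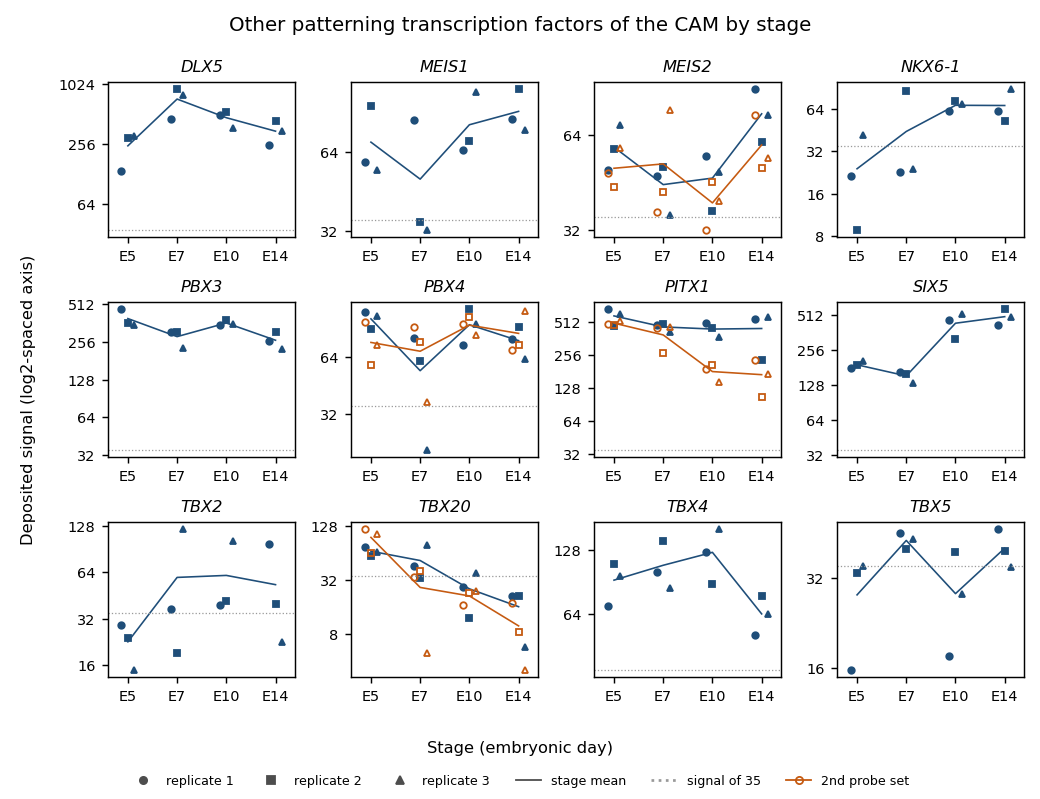
Signals of the 12 patterning genes outside the HOX clusters on the 12 arrays (y axis, deposited signal on a log2-spaced axis that differs between panels; x axis, stage), with 1 point per CAM, lines through the stage means and open orange symbols for the dimmer probe set of a gene. SIX5 lies higher at E10 and E14 than at E5 and E7, the TBX20 means are highest at E5, and the 2 PITX1 probe sets part at E10.

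All E10 CAMs had a high HINTW signal, against 1 of 3 at E5 and 1 of 3 at E7. Stage and sex were thus partly mixed in E10 against E5 and in E10 against E7. With the HINTW signal as a covariate, 6 of the 14 calls in E10 against E5 were kept, which were HOXA3 and SIX5 (higher) and HOXA11 on both probe sets, HOXD11 and PITX1 (lower). The other 8 had the same sign, with adjusted p between 0.0601 for HOXA2 and 0.298 for NKX6-1. In E10 against E7 the calls of HOXA3 and SIX5 were kept with this covariate, and those of PITX1 (adjusted p = 0.0622) and TGIF2 were lost. In E14 against E5, 15 of the 36 probe sets were called with it. Of all called differences, 18 of 33 passed under every alternative in which they were tested and 0 changed sign.

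The 48 genes of these families with no probe set over the limit included all of the IRX, LHX and ALX genes measured, HOXA5, and most HOXB, HOXC and HOXD genes. Just inside the limit, the lowest signal at the best stage was 38.0 for HOXA2, 38.2 for 1 HOXA10 probe set, 39.2 for TBX2 and 40.1 for TBX5. Just outside it was 32.9 for DLX6, 32.8 for another HOXA7 probe set, 32.6 for NKX2-6 and 31.2 for HOXD10. Of the member probe sets 30.6% had a signal under 20 on some array, against 21.1% of all tested.

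Genes that make, degrade, take up or bind retinoic acid were followed beside the HOX genes, and 10 of 17 listed were tested. In E14 against E5, 6 were called higher and 1 lower, with a median log2 fold change of 1.61 over the 10 and 0.03 over all tested probe sets, and the counts in E10 against E5 were the same. Of all tested probe sets, 14.8% were called higher and 13.6% lower in E14 against E5, and 9.36% and 4.78% in E10 against E5. ALDH1A3, RARA, RXRA, RXRG, CYP26B1 and STRA6 did not pass the limit at E5. They could be tested only by being high later, so these counts and this median give no support to a rise of the list. ALDH1A2 and ALDH1A3 make retinoic acid. ALDH1A2 had signals of 239, 219 and 177 at E5, 34.6, 47.3 and 117 at E7, 59.6, 70.6 and 46.1 at E10 and 92.3, 55.6 and 128 at E14, and was called lower in E7 against E5 (log2 fold change -1.87 ± 0.42, adjusted p = 0.0385). That call was lost without any E5 array, E7 replicates 1 or 2, any E10 array or E14 replicate 1 (adjusted p up to 0.142). ALDH1A3 had signals of 42.3, 26.4 and 56.04 at E5, 385, 382 and 277 at E7, 206, 539.8 and 198 at E10 and 127, 142 and 138 at E14. Each later stage lay above E5 without overlap, with a log2 fold change of 3.11 ± 0.36 in E7 against E5 (adjusted p = 0.000594).

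DHRS3, which turns retinaldehyde back into retinol and is itself induced by retinoic acid, had signals of 42.3, 60.3 and 44.1 at E5, 67.4, 92.2 and 108 at E7, 311, 292 and 250.1 at E10 and 302, 382 and 363 at E14. All E10 arrays lay above all E7 arrays. Its log2 fold change was 1.70 ± 0.25 in E10 against E7 (adjusted p = 0.00178) and 2.84 ± 0.25 in E14 against E5 (adjusted p = 2.02e-06). The receptor RXRG had signals of 6.19, 8.001 and 11.6 at E5, 24.1, 21.6 and 37.5 at E7, 129, 112 and 52.7 at E10 and 82.8, 67.5 and 41.4 at E14. It was low at E5, and its log2 fold change in E14 against E5 was 2.88 ± 0.49 (adjusted p = 0.000401). The receptors RARA, RARB and RXRA were also called higher at E14 than at E5, by 1.72, 1.51 and 2.84 on the log2 scale (adjusted p = 0.0088, 9.93e-05 and 0.00291). At E5, RXRA was at 19.8, 4.63 and 27.5 and RARA at 19.05, 42.4 and 12.7, so the size of their changes rests on low E5 signals. RXRA and RXRG passed the limit at E10 and E14 alone, and CYP26B1 and STRA6 at E14 alone. RDH10, which makes retinaldehyde, was called higher in E10 against E7 alone (1.01 ± 0.20, adjusted p = 0.0113). That call was lost without E7 replicate 1 or E10 replicate 3 and after quantile normalization (adjusted p up to 0.0591 over all alternatives). It was also lost with the HINTW covariate, with an offset of 16 and with the array medians set equal. CYP26B1, which degrades retinoic acid, and STRA6, which takes up retinol, were not called, with log2 fold changes of 1.00 and 0.50 in E14 against E5 (adjusted p = 0.141 and 0.518).

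**Figure D5:**
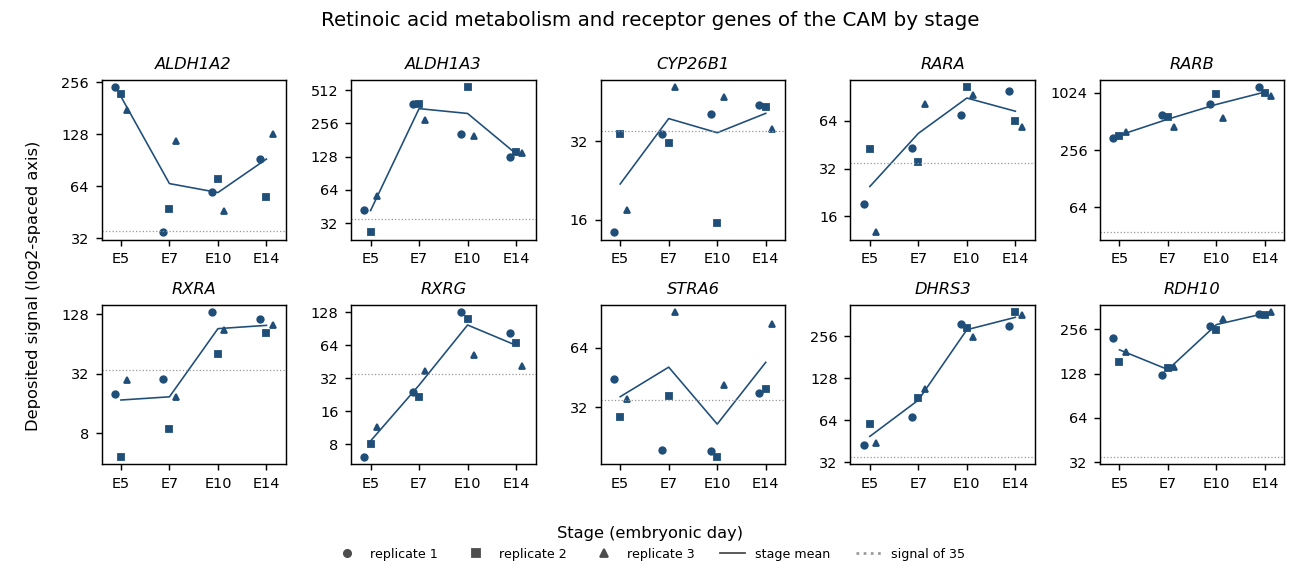
Signals of the 10 tested genes of retinoic acid metabolism and reception on the 12 arrays (y axis, deposited signal on a log2-spaced axis that differs between panels; x axis, stage), with 1 point per CAM and lines through the stage means. ALDH1A2 is highest at E5 and ALDH1A3 lowest, and DHRS3, RARB and RXRG lie above E5 on all E10 and E14 arrays.

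Factors of caudal and lateral mesoderm were called lower where they were called. Of 7 tested genes of 12 listed, 3 were lower and 0 higher in E14 against E5, and likewise in E10 against E5. Their median log2 fold change in E14 against E5 was -1.08. Of all tested probe sets, 13.6% were called lower in E14 against E5 and 4.78% in E10 against E5. GATA4 and ISL1 passed the limit at E5 and E7 alone, so they could be tested only by being high there. ISL1 is among the 3 called lower at E14, and GATA4 among the 3 called lower at E10. GATA5, a factor of endoderm and heart mesoderm, had signals of 2256, 2398 and 2276 at E5, 2372, 1624 and 1674 at E7, 849, 741 and 751 at E10 and 299.9, 177 and 320.4 at E14. It was called in each of the steps from E7 on, with log2 fold changes of -1.26 ± 0.23 in E10 against E7 and -1.60 ± 0.23 in E14 against E10 (adjusted p = 0.00667 and 0.00187). GATA4, a relative of GATA5, was called lower in E10 against E7 and E10 against E5, with log2 fold changes of -3.27 and -3.20 (adjusted p = 0.0093 and 0.00291). Its signals were 53.0, 53.1 and 51.3 at E5, 49.7, 39.7 and 83.5 at E7, 3.75, 15.2 and 3.27 at E10 and 27.8, 15.9 and 34.5 at E14, so that the size of these changes rests on E10 signals at the bottom of the range. HAND2 and ISL1, which act in the heart and hindlimb, fell by 2.67 and 2.35 on the log2 scale in E14 against E5 (adjusted p = 0.000163 and 0.00443). CDX2, a regulator of posterior HOX genes, was not called, with a log2 fold change of 0.69 ± 0.41 in E14 against E5 (adjusted p = 0.195).

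Of 14 tested Polycomb and trithorax genes, 3 were called higher and 2 lower in E14 against E5, and 3 higher and 0 lower in E10 against E5, with medians of -0.11 and 0.16. The shares over all tested probe sets were 9.36% and 4.78% in E10 against E5 and 14.8% and 13.6% in E14 against E5. EZH2 and EED, subunits of the complex that trimethylates histone H3 at lysine 27, fell by 1.09 and 1.28 on the log2 scale (adjusted p = 0.000867 and 0.000771). Without E14 replicate 2, or after quantile normalization, EZH2 was under 2-fold. SUZ12, of the same complex, had a log2 fold change of -0.81 ± 0.22 (adjusted p = 0.00871), under 2-fold. EZH1, KMT2A and KMT2C were called higher, by 1.55, 1.08 and 2.18 (adjusted p = 0.02, 0.00111 and 0.00381). EZH1 was lost without E5 replicate 2 or E14 replicate 2 (adjusted p up to 0.0858), and KMT2A was under 2-fold without E5 replicate 2. The calls of EZH1 and KMT2C in E10 against E5 were lost in 13 of 21 and 5 of 22 alternatives (adjusted p up to 0.167 and 0.153). EZH1 passed the limit at E10 and E14 alone, so it could be tested only by being high there. JARID2, a partner of the EZH2 complex, was called higher in E10 against E5 (1.56 ± 0.38, adjusted p = 0.0111), but not after quantile normalization (adjusted p = 0.0742). Of 8 tested genes among other homeobox and mesenchymal factors, HHEX, a factor of endothelium and liver, was called higher in E14 against E5 (1.26, adjusted p = 0.000273) and PRRX1, a limb mesenchyme factor, lower (-1.89, adjusted p = 0.0294). PRRX1 was lost without any E5 array or E14 replicate 2 (adjusted p up to 0.113). It passed the limit at E5 alone, so it could be tested only by being high there. TWIST1 and SNAI2, which drive loss of epithelial character, were called lower in E14 against E10 (-1.19 and -1.11, adjusted p = 0.0191 and 0.0447). Both had their highest stage mean at E10. TWIST1 was called higher in E10 against E5 (1.02, adjusted p = 0.011), a change under 2-fold without E5 replicates 1 or 3 or E10 replicate 2. It was also under 2-fold with an offset of 16, after quantile normalization and with the array medians set equal. TWIST1 and SNAI2 were at -0.17 and -0.23 in E14 against E5 and not called (adjusted p = 0.618 and 0.536). In E14 against E10, TWIST1 was lost without any E10 array or E14 replicate 3 (adjusted p up to 0.0858), and SNAI2 without E5 replicates 1 or 2, E7 replicate 2, any E10 array or E14 replicates 2 or 3 (adjusted p up to 0.122).

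Markers of the cell types of the membrane were called over the same span. In E14 against E5, 6 of 8 endothelial markers, 4 of 5 tested mural and smooth muscle markers, 1 of 6 mesenchymal markers, 5 of 6 tested epithelial markers and 4 of 5 tested leukocyte markers were called higher, and 1 epithelial marker lower. Of 4 red cell markers 2 were higher and 1 lower, of 3 tested cartilage markers 1 was lower, of 5 tested markers of gut and yolk sac endoderm 1 was lower, and the 1 tested neural marker was higher. Of all tested probe sets, 14.8% were called higher and 13.6% lower in this comparison. Of the called markers, C1QA of leukocytes passed the limit at E14 alone, C1QB of leukocytes and DES of mural cells at E10 and E14 alone. The neural STMN2 passed at E10 alone and TTR of endoderm at E5 and E7 alone. KDR, KRT75 and RHAG did not pass at E5. Such markers could be tested only by being high at the stages where they passed. The summed endothelial signal was 6784, 6841 and 5083 at E14 and 2263, 2122 and 2861 at E5, the summed epithelial signal 14820, 13610 and 15300 at E14 and 3019, 4111 and 3388 at E5, and the summed leukocyte signal 2065, 2808 and 3363 at E14 and 199, 277 and 264 at E5. None of the 9 skeletal and heart muscle markers passed the limit, and their highest signal on any array was 125.2. The part of these markers in the changes of the HOX and other patterning genes was not tested.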

How the data were processed

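RNA of 12 CAMs was hybridised to Affymetrix chicken arrays. The deposited values are intensity signals that the authors computed with GCOS 1.2 and scaled on each array to a common target. They are on a linear scale, without present or absent calls. Leaving out control probe sets, 17726 of 38439 with a signal over 35 on all 3 arrays of at least 1 stage were tested on log2 signals (limma 3.58.1, R 4.3.3) by fitting a mean per stage, with an intensity trend. p-values were adjusted over all tested probe sets (Benjamini-Hochberg). Symbols came from the platform annotation (27168 probe sets with 1 symbol, 177 with several, 11094 with none), and all 36 members kept their symbol in the newer RefSeq annotation. SAM, which the study used, was not run, because 3 against 3 arrays give few rank values. An exact test of a single probe set cannot go below p = 0.1, but this bound does not apply to the false discovery rate of SAM. The alternatives were other filters, offsets, scalings and variance models, a HINTW covariate and leaving out each array. The number of arrays limits the precision. Genes were named if called in any comparison, among the 10 with the highest signals, the brightest of their gene or family, or nearest the limit, and of a list the 4 with the largest changes. CDX2, CYP26B1, EZH2, KMT2A, RARA, RARB, RDH10, RXRA, STRA6 and SUZ12 were named besides, after their values were seen. The members and gene lists were chosen with earlier results of these data known. A list was counted by the brightest tested probe set of each gene. The test was checked on simulated data.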

Additional observations from a re-analysis of the deposited data

How the results depend on the processing

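Of 33 called differences in single probe sets, 18 passed under every alternative in which they were tested, 0 changed sign, and the calls were lost in 93 of 719 refits. Among these 18, HOXA2 and both TBX20 probe sets in E14 against E5 were not tested at the stricter limit of 70, which they did not reach. The 15 calls in E14 against E5 varied between 11 and 16 over the other alternatives. The cause of the changes below was not tested. In E7 against E5 the 1 call became 3 with signals under 20 set to 20, 0 in eBayes without trend and 0 in the 6 arrays of the 2 stages alone, and it ranged from 0 to 2 when single arrays were left out (0 without E5 replicate 1, E7 replicate 2 or E7 replicate 3). In E10 against E5 the 14 calls became 6 with the HINTW covariate, and they ranged from 7 to 15 when single arrays were left out, with 7 without E5 replicate 2 or E10 replicate 1, 8 without E5 replicate 1, and 9 without E10 replicates 2 or 3. The number of members past the F test ranged from 11 to 18 without single arrays. The 3 calls in E10 against E7 ranged from 2 to 4, and in E14 against E10 limma called 0 under every alternative. Leaving out 1 array also added calls, of HOXA2 in E7 against E5 without E5 replicate 3 (3.95, adjusted p = 0.0417), and in E10 against E7 of 1 HOXA10 probe set without E7 replicate 1 (2.16, adjusted p = 0.0444) and the dimmer HOXA11 probe set without E14 replicate 2 (-1.86, adjusted p = 0.0216). The retinoic acid counts, an alternative chosen after seeing the data, were 7 in both long comparisons and ranged from 5 to 7 in E10 against E5 and from 6 to 8 in E14 against E5.

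With a replicate block, 1, 3, 0, 12 and 15 members were called in E7 against E5, E10 against E7, E14 against E10, E10 against E5 and E14 against E5, and 13 passed the F test. Deviations of arrays with the same replicate number correlated at -0.14 to 0.071, so the numbers do not pair the CAMs.

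Signals near the bottom of the range limit the folds of HOXA2, HOXC9, HOXD11, HOXD13, NKX6-1 and TBX20. With an offset of 16 the log2 fold change in E10 against E5 was 1.29 for HOXA2, -1.45 for HOXC9, -2.24 for HOXD11, -1.83 for HOXD13 and 1.14 for NKX6-1, and in E14 against E5 it was 1.61 for HOXA2, -1.46 for HOXC9, 1.12 for NKX6-1 and -2.11 and -1.41 for TBX20.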

Other observations

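HOXA10-AS, the antisense transcript of HOXA10, was tested on 1 probe set, and its log2 fold change in E14 against E5 was 0.16 ± 0.33 (SE, limma, adjusted p = 0.73).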
